A study of Mus musculus with 2 samples.

Results

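A set of 7 transcription factor genes outside the Hox clusters that set or mark regional identity of the gut were examined in the colon: Cdx1, Cdx2, Gata4, Gata6, Osr1, Osr2 and Sox2. The 7 genes were chosen from a larger analysis of these same data because Osr2 and Cdx2 were higher on 1 of its 2 arrays, so the values that chose them are given here as a description, and no test is attached to them. All 7 genes were found, with 12 probe sets among the 45101 of the array, and they make up 7 of the 18193 genes that could be named from a single-symbol probe set. The array of Hif-2αF/F mice and the array of Hif-2αΔIE mice each stand for 1 genotype. Both groups were on a C57BL/6 background, were 6 to 8 weeks old per the labels (the design text says 7), received 3% DSS (dextran sulfate sodium, which damages the colon lining) for 3 days, and gave scrapings of the colon mucosa. F/F mice carry conditional alleles of Epas1, which encodes HIF-2α, and ΔIE is taken, as is known for this model, to mean its loss from the intestinal epithelium. The labels do not name the promoter that drives Cre. There was no array without DSS. Although 6 F/F and 5 ΔIE mice stand in the design text, only 1 array per genotype was analysed, and the labels do not say whether RNA was pooled. Every difference below therefore has no replicate check, and it compares these arrays, not the genotypes.

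Regional identity of the gut tube rests on transcription factors that act in the epithelium and in the mesenchyme beneath it. Cdx1 and Cdx2 encode caudal-type homeodomain proteins of the intestinal epithelium. Their expression begins at the boundary with the stomach, and Cdx2 is needed for intestinal rather than gastric or oesophageal identity. In the mouse colon Cdx2 is known to decline and Cdx1 to increase from the proximal towards the distal end. Gata4 and Gata6 encode zinc finger proteins that bind GATA motifs. Gata4 marks the duodenum and jejunum, whereas Gata6 is expressed in the epithelium of small and large intestine. Sox2 encodes a high-mobility-group protein of the foregut that stands opposite Cdx2 at the boundary of stomach and intestine; in the adult it is also found in stratified squamous epithelia, the anal lining among them, and in enteric glia. Osr1 and Osr2 encode odd-skipped zinc finger proteins best known from mesoderm and mesenchyme of the embryo.

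Promoter sequence was at hand for Cdx2 and Sox2, 2 of the 7 members, which are also the pair that oppose each other at the foregut boundary and that differed in opposite directions here. The 250 bases before each gene's annotated start are printed 5′ to 3′ on the gene's own strand, from RefSeq on GRCm38.p6. Capitals mark ACGTG or GCGTG, the core of the element bound by hypoxia-inducible factors, and TTTAT, the core bound by CDX proteins, each searched on both strands. The Cdx2 window is chr5:147307250-147307499 on the minus strand, and the Sox2 window is chr3:34649745-34649994 on the plus strand.
Cdx2: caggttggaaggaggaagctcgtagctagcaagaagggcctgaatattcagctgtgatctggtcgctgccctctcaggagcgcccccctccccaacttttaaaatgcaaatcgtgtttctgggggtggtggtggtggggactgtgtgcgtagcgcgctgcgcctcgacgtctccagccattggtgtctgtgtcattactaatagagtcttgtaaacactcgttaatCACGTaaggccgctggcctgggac
Sox2: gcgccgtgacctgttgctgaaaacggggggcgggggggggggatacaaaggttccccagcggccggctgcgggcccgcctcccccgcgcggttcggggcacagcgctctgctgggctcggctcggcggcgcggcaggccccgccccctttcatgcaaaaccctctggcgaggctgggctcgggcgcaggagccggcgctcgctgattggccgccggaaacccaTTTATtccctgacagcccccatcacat
The Cdx2 window held 1 ACGTG, on the strand opposite to the one printed and so shown as its complement, 24 to 20 bases before the start. It held no GCGTG and no TTTAT. The Sox2 window held 1 TTTAT, 27 to 23 bases before the start, and neither hypoxia core. These short words are common: of 32841 promoter windows of the same length, 16.6% held ACGTG on either strand, 28.2% held GCGTG, 38.6% held at least 1 of both hypoxia cores and 37.3% held TTTAT. No match overlapped another in the windows shown. The matches describe letters and were not tested as binding sites.

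The values below are on the log2 scale, from robust multi-array averaging (RMA, which corrects, equalises and summarises the probes of each set), and a difference is ΔIE minus F/F on that scale. A gene is given by its brightest probe set over both arrays, and it was kept where at least 1 array came to 6.11, the middle of the probe sets' mean levels. That left 11899 genes, among them 6 of the 7 members; Gata4 did not reach the level. Of these genes, 1.15% were at least 2-fold higher on the ΔIE array and 5.30% at least 2-fold lower. Of the members kept, Osr2 and Cdx2 were 2-fold higher and Sox2 was 2-fold lower, and since 2 of the 3 led to the choice of the genes, nothing is read from that count. Cdx1 and Gata6 were higher and Osr1 lower by less than 2-fold.

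**Figure D1:**
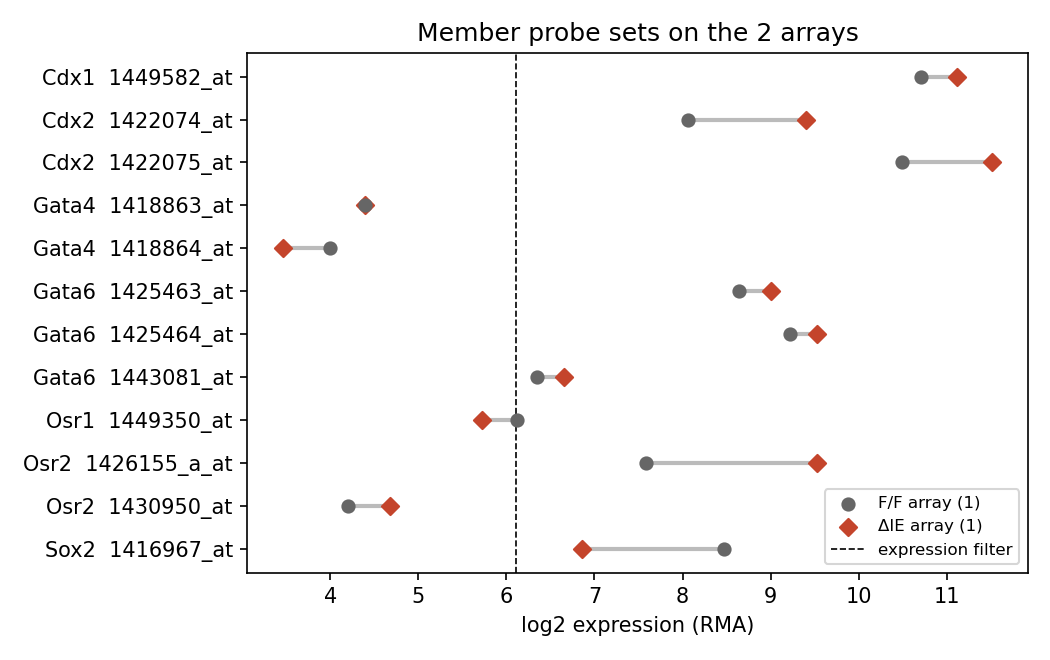
Each row is 1 probe set of a member, with its log2 expression on the F/F array (grey circle) and the ΔIE array (red diamond); the dashed line is the expression filter at 6.11. Both Cdx2 and all 3 Gata6 probe sets lie to the right on the ΔIE array, Sox2 lies to the left, and only 1 of the 2 Osr2 probe sets is above the filter.

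The caudal factors were both higher on the ΔIE array, Cdx2 by more than Cdx1. Cdx2 read 10.49 in F/F and 11.51 in ΔIE by its brighter probe set, 1422075_at, a difference of 1.02 or 2.03-fold. Its dimmer probe set, 1422074_at, read 8.07 and 9.40, a difference of 1.34. Both probe sets of Cdx2 were thus higher on the ΔIE array, with a gap between them above the median gap of other genes. For comparison, 5110 genes had 2 or more probe sets above the filter, and within a gene the brightest pair gave differences a median of 0.10 apart, 95% of them within 0.41; the Cdx2 pair lay 0.31 apart. Cdx2 sat close to the 2-fold line, and with a lowess correction of the difference on the mean its value was 0.96, just under it. Cdx1, the paralog, has 1 probe set, which read 10.70 and 11.12, a difference of 0.42. Among the 11899 genes, Cdx2 was the 127th highest difference and Cdx1 the 1015th. The difference between the paralogs themselves was not tested.

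The odd-skipped genes went opposite ways. Osr2 read 7.58 in F/F and 9.53 in ΔIE by probe set 1426155_a_at, a difference of 1.95 or 3.86-fold, and only 3 of the 11899 genes had a higher one. Its other probe set, 1430950_at, was below the filter on both arrays at 4.20 and 4.68, and its difference was 0.47. The ending _a_at marks a probe set that matches several transcripts of 1 gene, and with such probe sets left out only the dim one remained, so Osr2 then differed by 0.47 and was not 2-fold. The mean of both was 1.21. Osr1 read 6.12 in F/F, at the filter, and 5.73 in ΔIE, a difference of -0.40 close to the dim end of the scale. Osr2 was thus above the filter on both arrays by 1 probe set, whereas Osr1 reached it on the F/F array only.

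Of the GATA factors, only Gata6 was measured above the filter. Its 3 probe sets read 9.22 and 9.53, 8.65 and 9.003, and 6.34 and 6.65 on the F/F and ΔIE arrays, with differences of 0.31, 0.36 and 0.31. These lay within 0.05 of each other, although the probe sets differ in brightness. Gata4 read 4.39 on both arrays by 1 probe set, to the last printed digit, as did 1699 of all probe sets, and 4.003 and 3.46 by the other. Neither Gata4 probe set came near the filter. The colon lies outside the known Gata4 domain, but RMA gives no detection call, so these values show only that the signal was dim on both arrays.

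Sox2 was the member with the largest difference in the lower direction. On its single probe set the F/F array read 8.47 and the ΔIE array 6.85, a difference of -1.62 or 3.07-fold lower. On the ΔIE array it was still above the filter. It was the 160th lowest of 11899 genes, which places it among the 5.30% that were at least 2-fold lower.

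**Figure D2:**
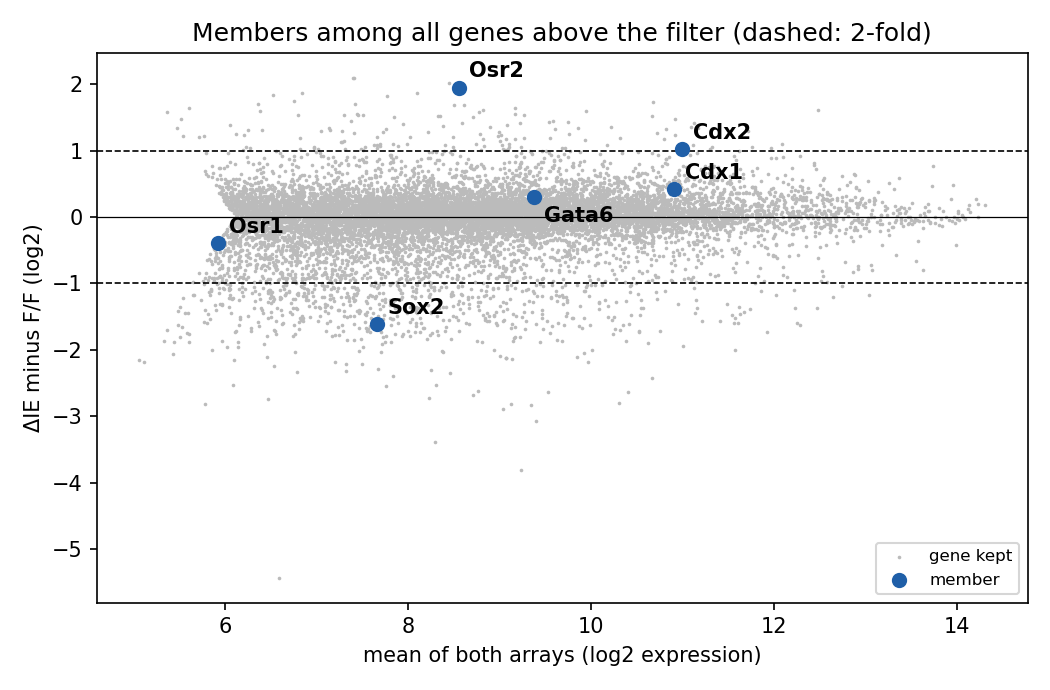
Every gene above the filter is a grey point at its mean log2 expression over both arrays (x) and its ΔIE minus F/F difference in log2 (y), with the 6 members kept in blue and dashed lines at 2-fold. Osr2 (1.95) and Cdx2 (1.02) lie above the upper line, Sox2 (-1.62) below the lower one, and Cdx1, Gata6 and Osr1 between them.

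To place the caudal factors, genes reported as targets of CDX2 or CDX1 in the intestine were set beside them. Of 17 such genes kept, 15 were higher on the ΔIE array and 3 passed 2-fold, none was 2-fold lower, and the median difference was 0.37. Over all 11899 genes, 52.7% were above 0, 1.15% were at least 2-fold higher and the median was 0.02. The list was chosen with earlier results of these data known, and Cdx2 for its direction. Nothing is therefore read from their shared direction. Cldn2, which encodes the pore-forming tight junction protein claudin-2, read 10.41 and 11.83, a difference of 1.42. Gcg, the proglucagon gene of enteroendocrine L cells, read 8.39 and 9.78, a difference of 1.39. Isx, an intestine-specific homeobox gene that lowers vitamin A uptake, read 10.09 and 11.35, a difference of 1.26. The next by size were the brush border phosphatase gene Alpi (0.99), the drug efflux pump gene Abcb1a (0.78), the metalloprotease gene Mep1a (0.70) and the guanylate cyclase C gene Gucy2c (0.67). The goblet cell mucin gene Muc2 differed by 0.28, the adhesion gene Cdh17 by 0.37 and the carbonic anhydrase gene Car1 by 0.17. Furin, a proprotein convertase gene, was lower by 0.46 (9.38 and 8.92). The lactase gene Lct, a product of the small intestine, was below the filter at 3.82 and 4.08. Of the 17 genes, 6 also stand in the lists of epithelial factors or epithelial markers below.

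**Figure D3:**
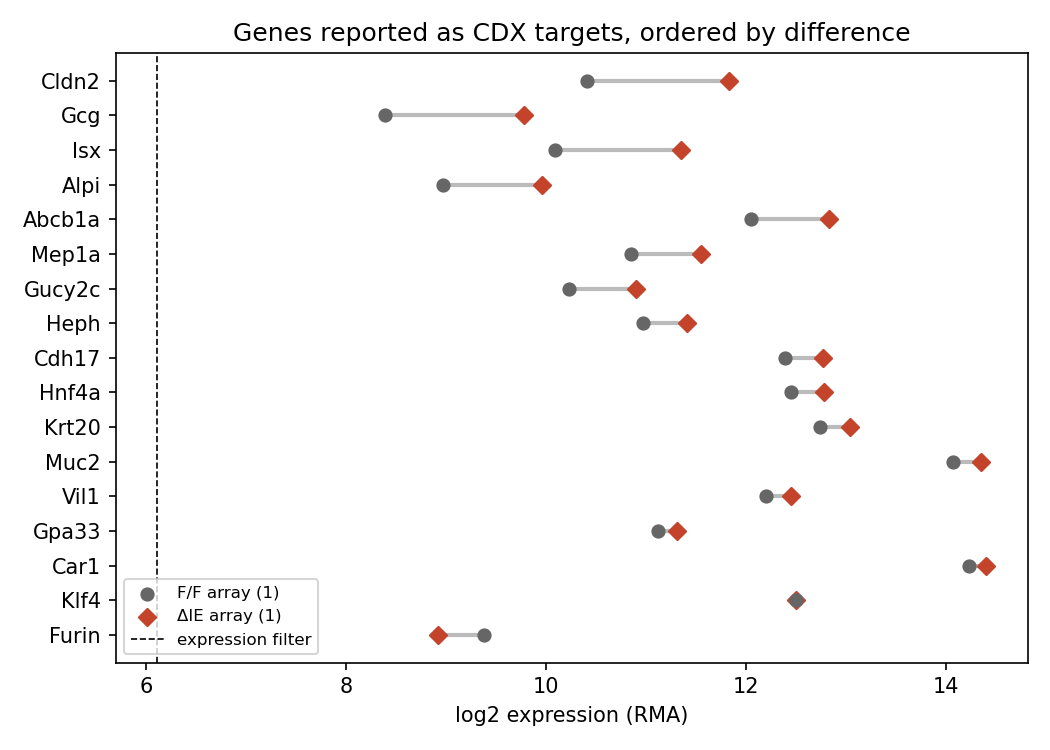
Log2 expression of the 17 genes reported as CDX targets that passed the filter, on the F/F array (grey circles) and the ΔIE array (red diamonds), ordered by difference from Cldn2 (1.42) to Furin (-0.46). Nearly every diamond lies to the right of its circle, and Klf4 shows no gap.

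Markers of columnar epithelium lay at similar levels on both arrays. The 12 markers of simple columnar epithelium ran from 11.55 to 13.98 in F/F and from 11.55 to 14.04 in ΔIE, and their differences ran from -0.23 to 0.37 with a median of 0.07. These epithelial markers were thus at high levels on both arrays. Smooth muscle genes also reached 12.91 in F/F and 12.82 in ΔIE, and squamous genes 13.25 and 12.04. The levels therefore do not check the label of colon mucosa. Cdx2, at 1.02, lay above the range of the columnar marker differences, and Cdx1, at 0.42, just above it. The top of that range, 0.37, is Cdh17, which like Krt20 and Vil1 also stands among the CDX targets. In a bulk scraping, more cells of a type and more RNA per cell cannot be told apart.

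Among 18 other transcription factors of the gut epithelium that were kept, 12 were higher and 6 lower, with a median of 0.19. Those at least 2-fold higher were Isx, given above, and Nr5a2, the gene of the nuclear receptor LRH-1, which read 8.67 and 9.87, a difference of 1.20 that was 0.84, under 2-fold, as the mean over its probe sets. Foxa3, a forkhead factor gene of endoderm, differed by 0.73 and the vitamin D receptor gene Vdr by 0.59. Sox9, a factor gene of the crypt base, differed by 0.54. Hnf4a, which encodes a nuclear receptor of enterocytes, differed by 0.33, and its paralog Hnf4g by 0.35, while the zinc finger factor genes Klf4 and Klf5 differed by 0.00 and 0.08. Prdm1, a repressor gene, and Maf were lower by 0.46 and 0.34. Pdx1, the factor gene of the duodenum and pancreas, and Gata5, the third GATA factor gene of endoderm, were below the filter like Gata4, at 4.57 and 4.80 and at 4.38 and 4.67. Cdx2 and Gata6 differed in the direction of 12 of these 18 factors, beside 52.7% of all genes kept that were above 0. Since Cdx2 was chosen for its direction, nothing is read from that likeness.

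Genes that depend on Gata4 in the proximal small intestine gave no shared direction. Of 13 genes, 7 were kept, 3 higher and 4 lower, with a median of -0.13. With both arrays required to pass, 6 remained, 2 higher and 4 lower, with a median of -0.18. With no filter the median over all 13 was 0.26. Cubn, which encodes the endocytic receptor cubilin, read 5.59 for F/F and 7.18 for ΔIE. It passed the filter only on the ΔIE array, so its higher direction was favoured by the filter. Apoc2, an apolipoprotein gene, read 8.05 and 6.78, a difference of -1.27, and the sterol transporter gene Abcg5 differed by -0.92. The scavenger receptor gene Cd36 differed by 0.71. The liver-type fatty acid binding protein gene Fabp1 and the apolipoprotein genes Apoa1 and Apoa4, abundant products of the jejunum, were below the filter on both arrays, between 3.32 and 5.43. Of 4 ileal bile acid genes that Gata4 is known to hold down in the proximal small intestine, 3 were higher. Over all genes kept, 52.7% were above 0. The apical transporter gene Slc10a2 read 8.19 and 9.29, a difference of 1.09, and the export transporter subunit genes Slc51b and Slc51a differed by 1.08 and 0.95. The fourth, the ileal bile acid binding protein gene Fabp6, differed by -0.17. Gata4 itself was below the filter on both arrays, as stated above.

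Sox2 differed in the same direction as other factors and products of squamous epithelium. Of 4 other foregut and squamous transcription factor genes kept, all were lower on the ΔIE array, beside 46.5% of all genes kept. Trp63, which encodes p63 of the basal layer of stratified epithelia, read 9.16 and 7.61, a difference of -1.55; the mean over its probe sets was -0.72. Pitx1, a paired-type homeobox gene, read 9.71 and 8.42, a difference of -1.29. Sox21 and Pax9, factor genes of oral and oesophageal epithelium, differed by -0.39 and -0.25. The foregut and lung factor gene Nkx2-1 was below the filter at 4.56 and 4.58.

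Of 11 keratinised squamous epithelium genes kept, 10 were lower and 7 passed 2-fold, with a median of -1.36. Over all genes kept, 46.5% were below 0 and 5.30% at least 2-fold lower. This direction is not particular to squamous genes: the neutrophil and B cell lists below had medians of -1.56 and -1.81. The keratin genes of the basal layer Krt5 and Krt14 read 12.30 and 10.94, and 12.40 and 10.81. Krt17 and Krt16, keratin genes of stressed epithelium, differed by -1.88 and -1.69, and Krt17 by -0.96 as the mean over its probe sets. Col17a1, a hemidesmosome collagen gene, and Krt13 both differed by -1.71. The exception was Lor, a cornified envelope gene, at 5.56 for F/F and 6.16 for ΔIE, close to the filter. It passed only on the ΔIE array, so its higher direction was favoured by the filter. The Sox2 difference of -1.62 lay within the range of this list, -1.88 to 0.60. That range also spans the quartiles of all genes kept, -0.18 to 0.19, so nothing is read from it. Gastric products, the other adult setting of Sox2, were nearly all below the filter: of 11 genes, only the trefoil peptide gene Tff1 was kept (8.54 and 8.80), while the gastrokine genes Gkn1 and Gkn2, the proton pump gene Atp4a and the pepsinogen gene Pgc read between 4.31 and 4.64 on both arrays. Enteric glia also express Sox2. The 6 glia and neuron genes kept had a median of 0.14 and ran from -0.14 to 0.19. Among them the glial factor gene Sox10 read 6.58 and 6.78, near the filter, and the glial genes S100b and Gfap were below it. Since the list mixes glial and neuronal genes, its median tells little about glia. The cell type that carries Sox2 in these scrapings was not determined. Whether squamous, gastric or glial cells account for the Sox2 values was not tested.

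**Figure D4:**
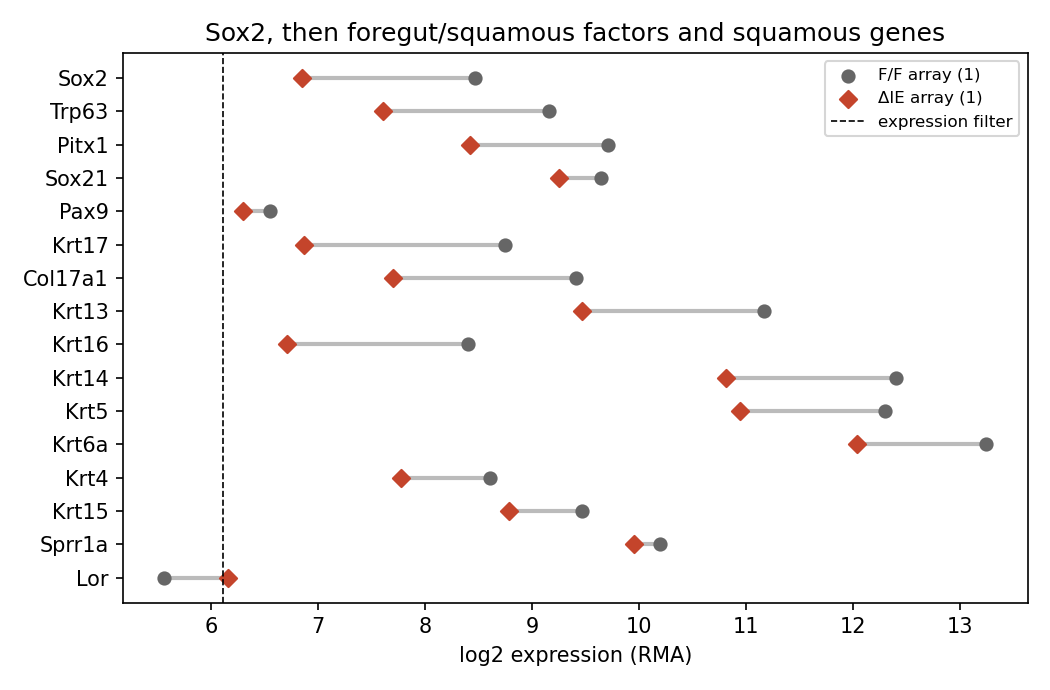
Log2 expression of Sox2 (top row), the 4 foregut and squamous factor genes kept (Trp63 to Pax9) and the 11 squamous epithelium genes kept (Krt17 to Lor) on the F/F array (grey circles) and the ΔIE array (red diamonds), with the expression filter dashed. Every diamond except that of Lor lies to the left of its circle.

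Osr1 and Osr2 were set beside mesenchymal genes, since both are known from mesenchyme. Of 13 mesenchymal and muscle transcription factor genes kept, 9 were lower and 4 higher, none at 2-fold, with a median of -0.23. Over all genes kept, 46.5% were below 0. The T-box gene Tbx3 differed most in the direction of Osr2, at 7.81 and 8.80, a difference of 0.99 that was 0.57 as the mean over its probe sets. Nr2f1, an orphan nuclear receptor gene, read 6.27 and 5.38, and it passed the filter only on the F/F array. Its lower direction was thus favoured by the filter, and without it 8 were lower and 4 higher, with a median of -0.17. The homeobox gene Hlx read 7.14 and 6.32, and Zeb2, a zinc finger repressor gene, differed by -0.63. The forkhead gene Foxf1 and the homeobox gene Nkx2-3, both of the intestinal mesenchyme, differed by -0.23 and 0.24. Fibroblast genes were lower, 14 of 15, with 3 at 2-fold, beside 5.30% of all genes kept, and a median of -0.82. The surface protein genes Pi16 and Thy1 differed by -1.36 and -1.19 and the collagen gene Col1a1 by -1.19. Pi16 differed by -0.68 as the mean over its probe sets and by 0 without probe sets ending in _s_at, _x_at or _a_at. Smooth muscle genes had a median of 0.06 over 10 genes, with the largest difference at Mylk, the myosin light chain kinase gene (0.28). Of 7 mesothelium genes, 2 were kept, and their differences were 0.28 (Upk1b) and -0.09 (Muc16), while Msln and Wt1 were below the filter. The cell type that carries Osr2 in these scrapings was not determined.

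Genes that mark the distal end of the axis differed on the same arrays. Over all genes kept, 46.5% were below 0 and 5.30% at least 2-fold lower. Among Hox genes of groups 10 to 13, 4 were above the filter on both arrays. All 4 were lower on the ΔIE array, 3 of them past 2-fold, with a median of -2.13. Another 3 (Hoxa10, Hoxa13 and Hoxd11) passed the filter only on the F/F array, so their lower direction was favoured by the filter, and the 3 below it on both arrays, Hoxc10, Hoxc13 and Hoxd12, differed by 0.34, 0.10 and -0.18. Hoxb13 differed by -2.83 and Hoxd13 by -2.82, or -2.20 as the mean over its probe sets. Set against the known order along the colon, Cdx2, which declines distally, was higher on the array on which Hoxb13 and Hoxd13 were lower, but Cdx1, which increases distally, was higher on it too. Neutrophil genes (median -1.56, 8 of 8 lower) and the B cell genes above the filter on both arrays (median -1.81, 4 of 4 lower) also differed; another 2, Cr2 and Pax5, passed it only on the F/F array. The part of the colon and the cell mix that each scraping held cannot be told apart from genotype with 1 array each.

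**Figure D5:**
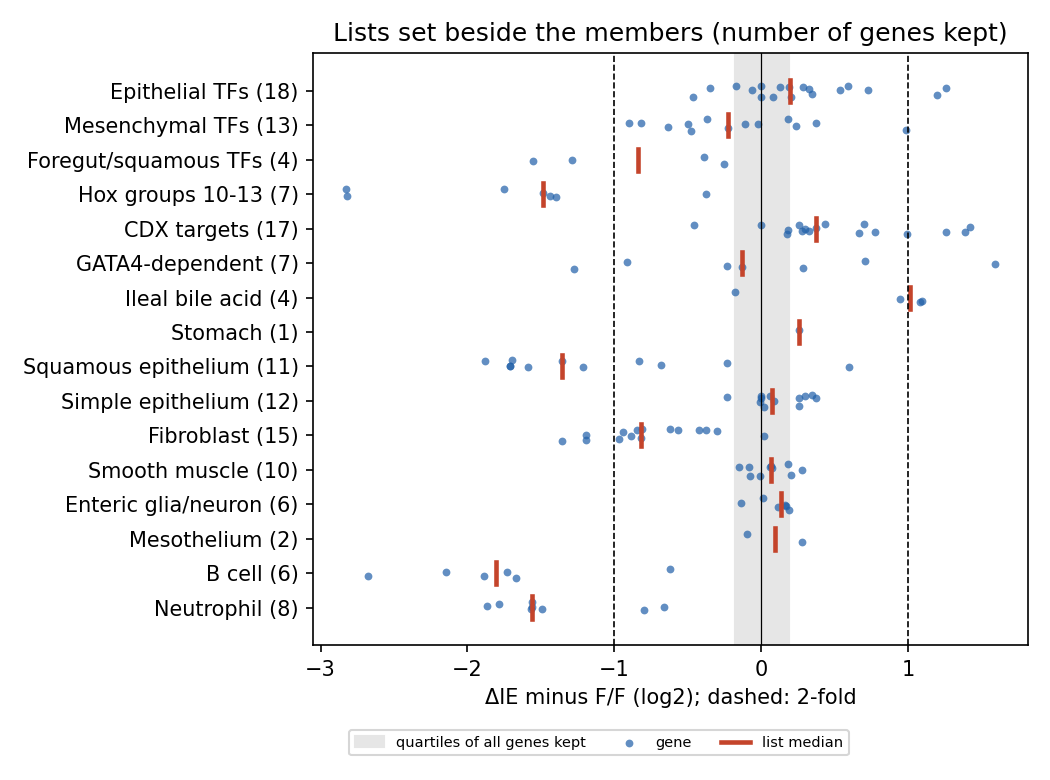
Each point is a gene above the filter at its ΔIE minus F/F difference (log2), by list, with the number of genes kept in brackets; red bars are list medians, the grey band spans the quartiles of all genes kept (-0.18 to 0.19) and dashed lines mark 2-fold. The medians of CDX targets (0.37), ileal bile acid genes (1.01), the 1 stomach gene (0.26) and, narrowly, epithelial factors (0.195) lie to the right of the band. Those of Hox groups 10 to 13 (-1.49 over 7 genes), foregut and squamous factors, squamous epithelium, fibroblast, B cell and neutrophil genes and, narrowly, mesenchymal factors (-0.23) lie to the left. Of these genes, 3 Hox, 2 B cell and 1 mesenchymal factor gene passed the filter only on the F/F array, which favoured their place to the left. Without them the Hox median was -2.13 and the mesenchymal one -0.17, inside the band.

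The genes with the most similar values on both arrays were found by the smallest Euclidean distance of the log2 values, a likeness that rests on 2 arrays only. For Osr2 these were the sulfate transporter gene Slc13a1 (7.44 and 9.46, distance 0.16), Tex9 (7.66 and 9.35, distance 0.20) and the mucin core glycosyltransferase gene B3gnt6 (7.77 and 9.46, distance 0.20). For Cdx2 they were the glutathione transferase gene Gstm3 (10.61 and 11.55, distance 0.13), Chgb, the granule protein gene chromogranin B (10.57 and 11.65, distance 0.16), and the nucleotide sugar transporter gene Slc35d1 (10.31 and 11.54, distance 0.18). No gene of the lists was among them.

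Readings that bear on the genotype labels were looked up on the same arrays. The 4 control probe sets for Cre recombinase read 2.92 to 4.22 for F/F and 7.86 to 10.01 for ΔIE. They are control probe sets of the array, and whether Cre control RNA was added to either sample was not determined. Other control readings were not examined, so the Cre values alone do not settle the genotype. Epas1 read 11.90 and 11.77 by its brighter probe set and 6.98 and 7.15 by the other; whether either lies in the deleted part was not determined, so this checks nothing.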

How the data were processed

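RNA of colon mucosal scrapings was measured on 1 array per genotype, grouped by the genotype label. The deposited values are log2 expression per probe set, from RMA in the affy package as the authors ran it, per the submitters' processing notes; their versions and filters are not stated. RMA sets the distributions of the arrays equal and compresses dim differences. The number of arrays limits the precision, and no test between genotypes was possible.

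Gene names came from the platform annotation; probe sets with several symbols or none, and control probe sets, were left out. Listed symbols with no match were not analysed here: 3 epithelial factors, 1 mesenchymal, 1 foregut, 2 Hox, 1 CDX target, 1 stomach, 1 squamous, 2 glial and neuronal, and 1 B cell gene. Values were used as deposited, and a gene was counted at 2-fold. The members and the 16 lists were chosen with earlier results of these data known. The text names all members, up to 6 genes of each list at 2-fold, up to 4 more of largest difference, and 3 genes nearest to Osr2 and to Cdx2; other listed genes were named after their values were seen. Counting was tested on simulated data. Alternatives were the mean over probe sets, leaving out probe sets ending in _s_at, _x_at or _a_at, median centring, lowess (span 0.3), other filters, and thresholds of 1.5-fold and 3-fold. With 1 array, a difference was taken to have moved when it shifted by over 0.41, the 95th percentile of the gap between a gene's 2 brightest probe sets. Promoter windows came from RefSeq (GRCm38.p6). Windows on 1 chromosome, and any of another length or with undetermined bases, were left out of the search and of the shares. Python 3.11.15, numpy 2.4.6, pandas 2.3.3, statsmodels 0.14.6 and matplotlib 3.10.9 were used.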

Additional observations from a re-analysis of the deposited data

How the results depend on the processing

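Osr2 differed by 1.95, by 1.21 as the mean over its probe sets and by 0.47 without probe sets ending in _s_at, _x_at or _a_at, which leaves only its dim probe set; under median centring and lowess it was 1.93 and 1.92. Cdx2 ran from 0.96 (lowess) to 1.18 (mean over probe sets). The count of members at least 2-fold higher, 2, was 1 without those probe sets (Cdx2), 1 under lowess (Osr2) and 1 at 3-fold (Osr2), and stayed at 2 with no filter, with a filter at the 75th percentile, with both arrays required to pass, and at 1.5-fold. The count of members lower, 1 (Sox2), was the same under all 9 alternatives. For the other 5 members, all 20 values moved by less than 0.41. Of 110 list medians under the alternatives, 4 moved by more: the foregut and squamous factors to -0.32 with no filter and to -1.29 at the 75th percentile, and the Hox genes to -2.82 at the 75th percentile and -2.13 with both arrays required. Of 518 values of listed genes, 11 moved by more. No value past 2-fold changed sign. No paired analysis was possible because each genotype has 1 array and no test was run, and no array could be left out. Signal over background limits the dim members: Gata4, Osr1 and the second Osr2 probe set lie at or below the filter, where differences are compressed.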
